A study of Mus musculus with 6 samples.

Results

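The genes described here are 46 genes of DNA replication and the S phase of the cell cycle, chosen by symbol from the 57010 rows of a table of counts per gene. They cover the replicative helicase, origin licensing, DNA polymerases, the sliding clamp and its loader, Okazaki fragment processing, nucleotide supply, E2F transcription factors and E-type cyclins. The libraries were made from RNA of CT26 cells, a mouse colon carcinoma line. The cells carried a CRISPR guide against Cdk10 (sgCdk10, 3 libraries), the gene of cyclin-dependent kinase 10, or a control guide (sgControl, 3 libraries). All cells were otherwise of the same line, and the labels name no further treatment. Whether either line was 1 clone or a pool, and where the guide cuts, is not given in the labels. The study is about antitumor immunity and the sensing of nucleic acids, and the comparison here asks how replication genes differed between the cells with the 2 guides.

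DNA replication starts at origins that are marked by the origin recognition complex. In G1, CDC6 and CDT1 load the MCM helicase there, which is called licensing, and geminin blocks CDT1 afterwards. In S phase CDC45, MCM10 and the GINS complex turn the loaded helicase on, polymerase alpha with primase makes primers, polymerases epsilon and delta extend them, and the PCNA ring, opened by replication factor C, holds polymerases on DNA. Activator E2F factors drive transcription of most of these genes at the G1/S boundary, together with the E-type cyclins that activate CDK2. Carcinoma lines that divide quickly express the whole set.

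Total counts ran from 17532202 to 19258309 per library. The members had from 118 to 7909 counts in a library, and all 46 passed the filter on low counts. Levels are given as CPM, the counts of a gene relative to the TMM-scaled total of its library. Cdk10 itself had 11.3, 12.9 and 10.5 CPM in sgCdk10, against 21.5, 19.5 and 20.1 CPM in sgControl, with no overlap and a log2 change of -0.82 (edgeR adjusted p = 8.4e-09; SE 0.079), so the level of the target goes with the guide's label. SE is the standard error of the log2 fold change. Counts per gene do not show whether the coding sequence was edited. Pairs of replicates were set against counting noise, for which chi-square over its degrees of freedom is near 1. It was 1.53 to 1.61 in 4 pairs, but 4.08 and 4.14 for sgControl replicate 3 against the other sgControl libraries, so this library stands apart. Among the sgControl libraries it was the lowest for 18 and the highest for 21 of the 46 members. Over all 13442 genes tested it was the lowest for 5125 and the highest for 4961. The labels do not say whether the replicates are separate cultures, and p-values cover only the spread of these libraries, which may be technical. Among 12 markers of colon epithelium, Epcam and Car1 were at 0 in all 6 libraries and 3 passed the filter. Of these 3, Krt18 had a mean of 37.5 CPM in sgCdk10 and 24.0 CPM in sgControl. Krt20 had 19.5 CPM in sgCdk10 and 13.7 CPM in sgControl. Few of the listed markers of the tissue of origin thus show in these cells, and these keratins do.

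Most replication genes were modestly lower in sgCdk10, while the activator E2F genes were modestly higher. A gene is called changed here when the adjusted p of edgeR's quasi-likelihood test, corrected over all 13442 genes tested, is under 0.05. Of the 46 members 35 were called, where 42.5% of all genes tested were. In detail 30 fell, or 65.2%, where 20.4% of all genes tested fell. Another 5 rose, or 10.9%, where 22.1% of all genes tested rose, and 11 members were not called. The 5 that rose were E2f1, E2f2, E2f3, Ccne2 and Cdc6. Leaving out sgControl replicate 3, sgCdk10 replicate 1 or sgCdk10 replicate 3 gave 3 members called higher. The median log2 fold change over the members was -0.17, or 0.889-fold, against -0.0031 over all genes tested. Changes were small: no called member reached 1.5-fold, which 779 of the 5717 called genes did, and the extremes were Tk1 at -0.51 and E2f1 at 0.19. The groups did not overlap in 30 members that were lower in sgCdk10, against 24.8% of all genes tested, and in 6 that were higher, against 26.6%. In either direction that share was 51.3% of all genes tested. In bulk RNA, fewer cells in S phase and less of these mRNAs per cell cannot be told apart.

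**Figure D1:**
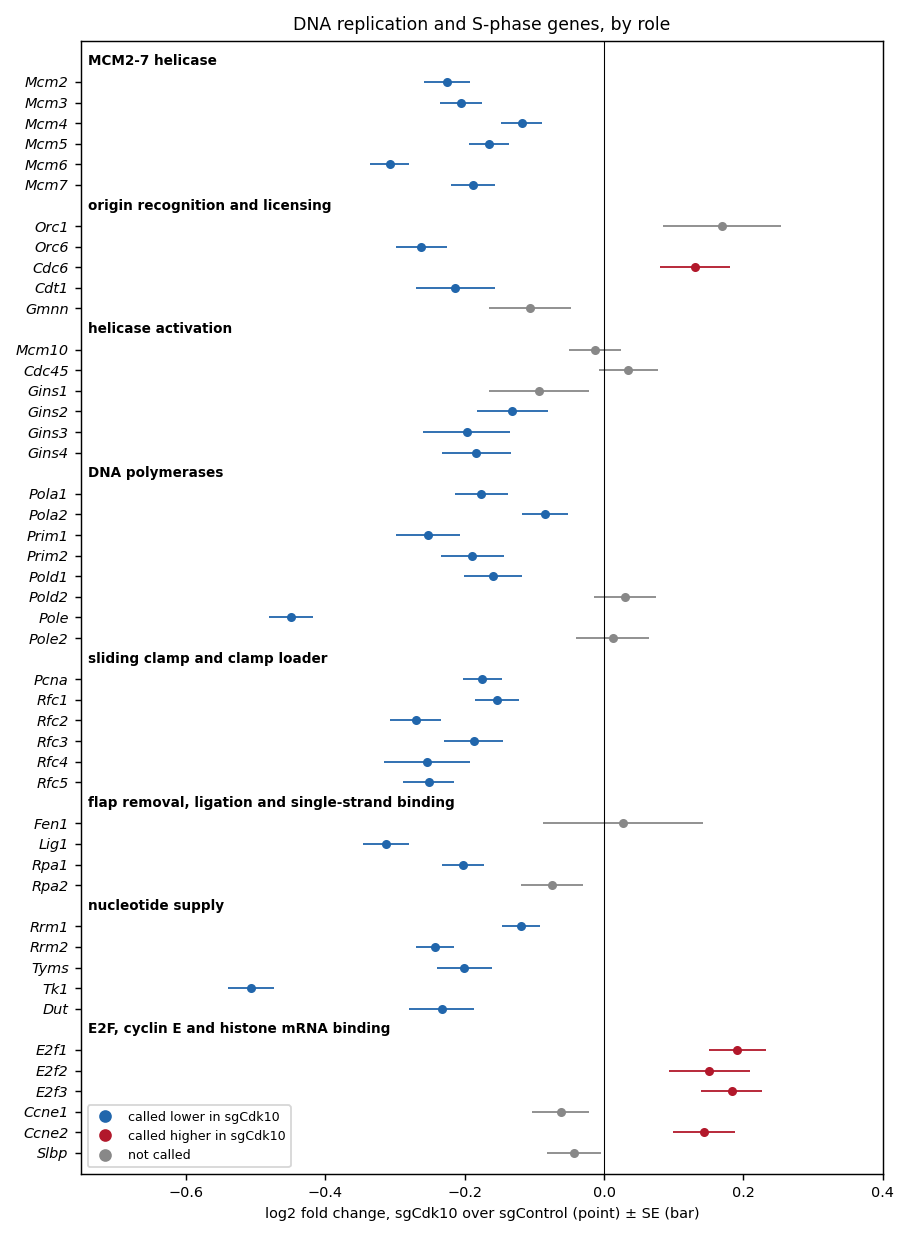
Log2 fold change of each of the 46 genes, sgCdk10 over sgControl (x axis), with the standard error as a bar, by role group (y axis). Blue points were called lower in sgCdk10, red points higher and grey points were not called. All points of the MCM helicase, the clamp and its loader and nucleotide supply lie left of 0, and the E2F genes and Ccne2 lie right of it.

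The start regions of these genes are shown because E2F factors are known to bind many of them. RefSeq windows on GRCm38.p6 of 250 bases before and 50 bases after the start were matched for 37 of the 46 genes, 44 windows in all. No window was matched for Ccne2, Gins1, Gins2, Gins4, Gmnn, Mcm4, Pole, Prim2 and Rfc2. An E2F motif, written as TTTCCCGC, TTTCGCGC, TTTGCCGC or TTTGGCGC on either strand, was present in 15 of the 44 windows (34.1%) and in 744 of all 32851 windows (2.26%). It was present in 10 of 24 genes that fell, 3 of 4 that rose and 2 of 9 that were not called. A gene with more than 1 window was counted if any of them held the motif. Some windows lie inside the annotated gene and not before it, among them that of E2f1, without the motif, and that of Cdc6, with it. These counts per gene are therefore loose. The letters CCAAT, on either strand, were in 56.8% of member windows and 37.4% of all windows, and TTTGAA, on either strand, in 15.9% and 17.9%. Base composition was not matched between the members and all windows. A match is a description of letters, and no match says only that these letters were not in this window. The 250 bases before the start are printed 5′ to 3′ for Mcm6 (chr1:128359706-128359955, minus strand) and Mcm5 (chr8:75109259-75109508, plus strand), which fell and hold the motif. They are also printed for Rrm1 (chr7:102441445-102441694, plus strand), which fell and lacks it, and for E2f3 (chr13:29986064-29986313, minus strand), which rose and holds it. E2f3 has a second window, at another start, without the motif. Capitals mark E2F motif matches, and a run of 12 capitals holds a match on each strand, overlapping in 4 bases.
Mcm6: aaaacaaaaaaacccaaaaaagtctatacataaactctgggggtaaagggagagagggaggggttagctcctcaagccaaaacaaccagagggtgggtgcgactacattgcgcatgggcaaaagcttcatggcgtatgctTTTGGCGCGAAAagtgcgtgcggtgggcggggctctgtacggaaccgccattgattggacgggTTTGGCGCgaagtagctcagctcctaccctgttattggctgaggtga
Mcm5: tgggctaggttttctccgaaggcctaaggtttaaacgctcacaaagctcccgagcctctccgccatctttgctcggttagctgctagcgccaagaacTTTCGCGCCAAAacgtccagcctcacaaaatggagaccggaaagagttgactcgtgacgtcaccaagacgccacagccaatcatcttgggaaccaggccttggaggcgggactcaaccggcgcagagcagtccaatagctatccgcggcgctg
Rrm1: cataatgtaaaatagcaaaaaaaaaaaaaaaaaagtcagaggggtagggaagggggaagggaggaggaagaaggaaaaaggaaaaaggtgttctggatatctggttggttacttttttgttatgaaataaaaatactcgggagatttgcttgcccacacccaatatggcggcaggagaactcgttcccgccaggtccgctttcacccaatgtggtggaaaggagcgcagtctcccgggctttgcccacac
E2f3: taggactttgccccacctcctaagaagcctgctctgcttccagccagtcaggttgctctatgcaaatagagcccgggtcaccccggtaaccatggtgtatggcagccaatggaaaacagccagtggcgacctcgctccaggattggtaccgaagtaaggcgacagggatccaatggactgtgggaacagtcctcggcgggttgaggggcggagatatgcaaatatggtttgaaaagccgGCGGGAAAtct
The Mcm6 window holds 3 matches, the Mcm5 window 2 and the E2f3 window 1. Among these 4 genes the motif thus stands before genes that fell and before 1 that rose.

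All 6 genes of the MCM helicase, the ring that unwinds DNA at the fork, fell, where 20.4% of all genes tested fell. Mcm6 (chr1:128331590-128359664 on the minus strand, in GRCm38 coordinates), a core subunit of the ring, had 243, 241 and 246 CPM in sgCdk10, against 294, 305 and 305 CPM in sgControl. Each sgCdk10 library was below each sgControl library, and the log2 fold change was -0.31 (edgeR adjusted p = 3.7e-09; SE 0.028). Mcm3, another subunit, had 266, 253 and 263 CPM in sgCdk10, against 307, 304 and 290.0 CPM in sgControl, again with no overlap, and a log2 change of -0.21 (edgeR adjusted p = 6.0e-06; SE 0.030). Mcm2 fell by 0.23, Mcm7 by 0.19, Mcm5 by 0.17 and Mcm4 by 0.12 on the log2 scale, with edgeR adjusted p of 0.00185 or less. The median of the 6 was -0.20, and the genes of this ring fell by amounts between 0.12 and 0.31. For Mcm2, Mcm3, Mcm5 and Mcm7, sgControl replicate 3 lay between the other sgControl libraries and the sgCdk10 libraries, for instance at 324 CPM for Mcm2 where the other sgControl libraries had 353 and 357 CPM.

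Of the 5 genes that mark and license origins 2 fell, 1 rose and 2 were not called. Over all genes tested 20.4% fell and 22.1% rose, and at this number of genes such counts do not set the group apart. Orc6, a subunit of the origin recognition complex, had 69.8, 69.7 and 70.0 CPM in sgCdk10, against 82.7, 83.0 and 85.6 CPM in sgControl, with no overlap and a log2 change of -0.26 (edgeR adjusted p = 3.1e-06; SE 0.037). Cdt1, which loads the helicase together with CDC6, had 124, 122 and 124 CPM in sgCdk10, against 148, 153 and 129 CPM in sgControl. The groups do not overlap, with sgControl replicate 3 closest to sgCdk10, and Cdt1 fell by 0.21 (edgeR adjusted p = 0.0125; SE 0.057). The call of Cdt1 was lost without sgControl replicate 1 (edgeR adjusted p = 0.0546) and without sgCdk10 replicate 2 (edgeR adjusted p = 0.0518). Cdc6 went the other way, with 45.0, 41.9 and 46.3 CPM in sgCdk10, against 41.3, 41.9 and 38.7 CPM in sgControl. The groups do not overlap, though their closest libraries round to the same value, and Cdc6 rose by 0.13 (edgeR adjusted p = 0.0398; SE 0.050). That call did not hold without sgControl replicate 3 (edgeR adjusted p = 0.123), sgCdk10 replicate 1 (0.116) or sgCdk10 replicate 3 (0.186), nor with upper-quartile scaling (0.0802), in DESeq2 (adjusted p = 0.189) or limma-voom (adjusted p = 0.0527). With the replicate number as a block, edgeR's adjusted p for Cdc6 was 0.0627. Orc1, the largest subunit of the origin recognition complex, had 11.7, 10.9 and 11.7 CPM in sgCdk10, against 10.4, 9.78 and 10.3 CPM in sgControl. These groups do not overlap, with sgCdk10 higher, but the test did not call it (log2 fold change 0.17, 95% interval -0.0050 to 0.34; edgeR adjusted p = 0.112). Gmnn, the gene of geminin, was not called either, with an interval of -0.23 to 0.016 (edgeR adjusted p = 0.156). Its log2 fold change was -0.11, and -0.063 without sgControl replicate 2, -0.066 without sgCdk10 replicate 2 and -0.058 with a correction for GC content and exon length. The count of Cdt1 relative to that of Gmnn, which does not depend on library scaling, was 4.61 ± 0.207 in sgCdk10 and 4.95 ± 0.302 in sgControl (SD, n = 3).

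Of the 6 genes that turn the helicase on, the GINS subunits Gins2, Gins3 and Gins4 fell and the others were not called. Gins4 had 44.7, 46.9 and 47.3 CPM in sgCdk10, against 54.3, 54.8 and 48.8 CPM in sgControl, with no overlap, and its log2 fold change was -0.18 (edgeR adjusted p = 0.0041; SE 0.049). With the GC and length correction that value was -0.13 (edgeR adjusted p = 0.0551). Gins3 had 21.2, 19.6 and 19.8 CPM in sgCdk10, against 22.0, 24.1 and 23.3 CPM in sgControl, with no overlap, and fell by 0.20 (edgeR adjusted p = 0.0131; SE 0.063). The Gins3 call was lost without sgControl replicate 2 (edgeR adjusted p = 0.0684), sgCdk10 replicate 2 (0.0721) or sgCdk10 replicate 3 (0.063) and in DESeq2 (adjusted p = 0.113). Gins2 fell by 0.13 (edgeR adjusted p = 0.0385; SE 0.051) and is the 1 called member whose groups overlap. Its call was lost without sgControl replicate 1 (edgeR adjusted p = 0.12) or 2 (0.141) and without sgCdk10 replicate 1 (0.186) or 2 (0.0915). It was also lost in DESeq2 (adjusted p = 0.162), in limma-voom (adjusted p = 0.0538) and with the replicate block (edgeR adjusted p = 0.061). Of the merged exon length of Gins2, 67.3% overlaps exons of Gse1 on the opposite strand, so its count is uncertain. Gins1, the fourth subunit, had a log2 change of -0.093 with an interval of -0.24 to 0.056 (edgeR adjusted p = 0.318). Without sgCdk10 replicate 2 its value was -0.026, and with the GC and length correction -0.051. Cdc45 and Mcm10, the activators that bind the loaded ring, had log2 fold changes of 0.035 (95% interval -0.052 to 0.12) and -0.013 (95% interval -0.090 to 0.063). Neither interval holds a fall of the size seen for Mcm6, and that of Mcm10 holds one of the size seen for Pola2.

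**Figure D2:**
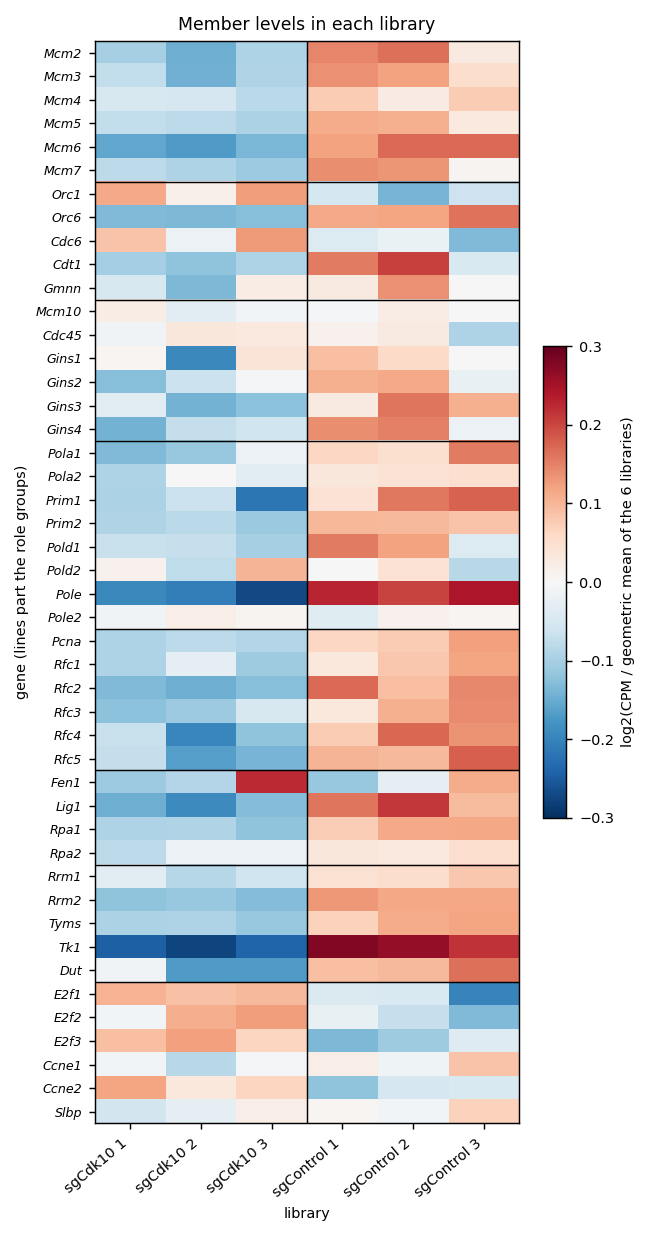
Level of each of the 46 genes (y axis, in role groups parted by lines) in each library (x axis, sgCdk10 left of sgControl), as log2 of CPM over the geometric mean of the 6 libraries. Blue is below and red above that mean. The rows of Tk1 and Pole show the strongest contrast, and the rows of E2f1, E2f2 and E2f3 run the other way.

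Among the polymerases the catalytic subunit of epsilon stood out. Pole (chr5:110286306-110337474 on the plus strand) encodes the polymerase that extends the leading strand, and had 143, 141 and 135 CPM in sgCdk10, against 191, 188 and 193 CPM in sgControl. The groups lie far apart, and the log2 fold change was -0.45 (edgeR adjusted p = 3.0e-11; SE 0.031), so that its level fell by 26.8%. Its partner subunit Pole2 had 29.0, 29.6 and 29.4 CPM in sgCdk10, against 28.5, 29.5 and 29.3 CPM in sgControl, with overlapping groups and an interval of -0.10 to 0.12 (edgeR adjusted p = 0.875). The ratio of Pole to Pole2 counts within a library, which no library scaling can shift, was 4.92, 4.77 and 4.61 in sgCdk10, against 6.72, 6.38 and 6.60 in sgControl. This pair of genes was chosen after their values were seen. All 4 genes of polymerase alpha and primase, which lay down the primers, fell. Prim1, the catalytic subunit of primase, had 64.5, 65.8 and 59.2 CPM in sgCdk10, against 70.9, 76.7 and 77.8 CPM in sgControl, with no overlap, and fell by 0.25 (edgeR adjusted p = 9.3e-05; SE 0.046). Prim2, the large primase subunit, fell by 0.19 and Pola1, the catalytic subunit of polymerase alpha, by 0.18 on the log2 scale. Pola2, the second subunit, fell by 0.085 (edgeR adjusted p = 0.0437; SE 0.033), the smallest change called among the members. That call was lost without sgControl replicate 1 (edgeR adjusted p = 0.0695) or 2 (0.0923) and without sgCdk10 replicate 1 (0.247) or 3 (0.0922). The call of Pola2 was also lost with total counts as the only scaling (edgeR adjusted p = 0.0559), without a filter (0.0732) and with the replicate block (0.0586). DESeq2 (adjusted p = 0.147) and limma-voom (adjusted p = 0.0518) did not call it. Of polymerase delta, which makes the lagging strand, the catalytic gene Pold1 fell by 0.16 (edgeR adjusted p = 0.00428; SE 0.041) and by 0.27 with the GC and length correction. Pold2, its second subunit, was not called, with an interval of -0.062 to 0.12 (edgeR adjusted p = 0.623).

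The sliding clamp and all 5 subunits of its loader fell, where 20.4% of all genes tested fell. Rfc2, a small subunit of the loader replication factor C, had 79.2, 78.4 and 79.4 CPM in sgCdk10, against 97.7, 92.4 and 96.0 CPM in sgControl, with no overlap and a log2 change of -0.27 (edgeR adjusted p = 1.4e-06; SE 0.036). Rfc5, another small subunit, had 91.5, 85.7 and 87.2 CPM in sgCdk10, against 103, 103 and 109 CPM in sgControl, and fell by 0.25 (edgeR adjusted p = 5.4e-06; SE 0.037). Rfc4 fell by 0.25, Rfc3 by 0.19 and the large subunit Rfc1 by 0.15 on the log2 scale. Pcna, the clamp itself, fell by 0.17 (SE 0.028, edgeR adjusted p = 2.3e-05). For all 6 genes the groups did not overlap and sgCdk10 was lower, which held for 24.8% of all genes tested. The median of these 6 genes, -0.22, was close to that of the MCM genes. The annotated pseudogene Pcna-ps2 had 18 to 49 counts per library, against 4267 or more for Pcna. Reads that match both loci may be missing from both, and their number was not tested.

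Of the genes that finish Okazaki fragments and coat single strands, 2 of 4 fell, where 20.4% of all genes tested fell. At this number of genes such a count does not set the group apart. Lig1 (chr7:13277283-13311433 on the plus strand), the ligase that joins the fragments, had 177, 172 and 179 CPM in sgCdk10, against 219, 227 and 209 CPM in sgControl. Its libraries do not overlap, and it fell by 0.31 (edgeR adjusted p = 3.1e-08; SE 0.033). Rpa1, the large subunit of the single-strand binding protein, had 176, 176 and 173 CPM in sgCdk10, against 197, 203 and 203 CPM in sgControl, without overlap, and fell by 0.20 (edgeR adjusted p = 5.2e-06; SE 0.030). Rpa2, the middle subunit, had 45.4, 47.3 and 47.3 CPM in sgCdk10, against 49.0, 48.9 and 49.6 CPM in sgControl, with groups that do not overlap but no call (log2 fold change -0.075; edgeR adjusted p = 0.183). Fen1, the flap endonuclease, had only 118 to 162 counts per library. Of its merged exon length, 78.8% overlaps the antisense gene Gm10143, so its count is uncertain and its interval of -0.21 to 0.26 is wide.

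All 5 genes of nucleotide supply fell, where 20.4% of all genes tested fell. Tk1 (chr11:117815526-117826092 on the minus strand), the thymidine kinase that salvages thymidine in S phase, had the largest change of the members. It had 93.0, 91.0 and 93.4 CPM in sgCdk10, against 134, 132 and 128 CPM in sgControl, with a log2 change of -0.51 (edgeR adjusted p = 9.1e-12; SE 0.033), so that its level fell by 29.6%. Rrm2, the regulated small subunit of ribonucleotide reductase, had 235, 236 and 233 CPM in sgCdk10, against 279, 277 and 277 CPM in sgControl, and fell by 0.24 (edgeR adjusted p = 1.2e-07; SE 0.028). The sgCdk10 libraries of both genes lie close together and well below those of sgControl. Rrm1, the large subunit of the same enzyme, fell by 0.12 (edgeR adjusted p = 0.000849; SE 0.027). The ratio of Rrm2 to Rrm1 counts was 0.615 ± 0.0128 in sgCdk10 and 0.670 ± 0.0112 in sgControl (SD, n = 3). Dut, which removes dUTP, fell by 0.23 and Tyms, which makes dTMP, by 0.20 on the log2 scale, both without overlap.

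**Figure D3:**
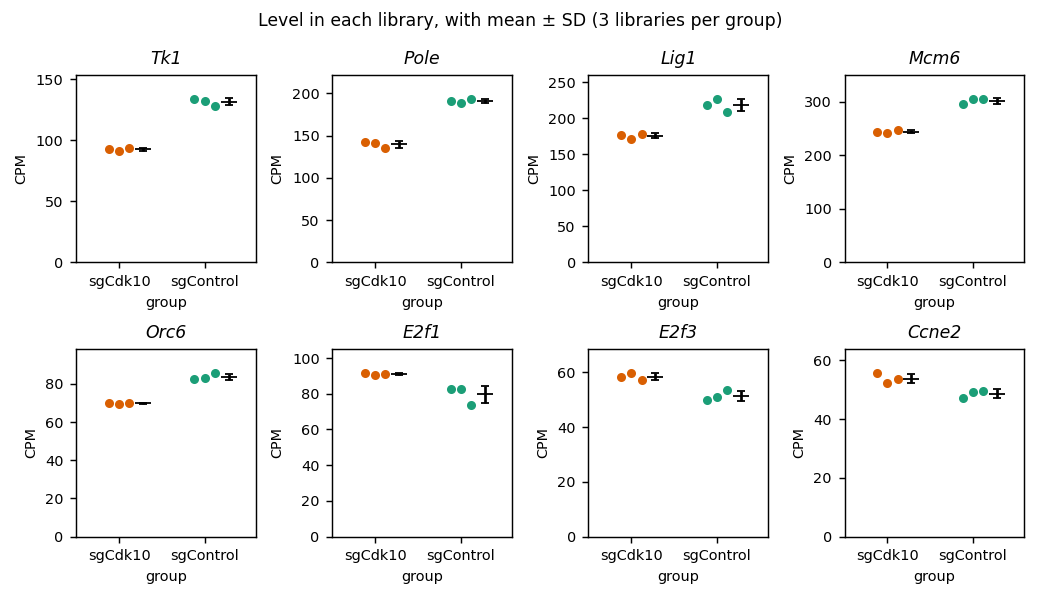
CPM (y axis, from 0) in each library of sgCdk10 (left) and sgControl (right) for 8 genes, with mean ± SD over 3 libraries in black. Tk1, Pole, Lig1, Mcm6 and Orc6 lie lower in all sgCdk10 libraries, and E2f1, E2f3 and Ccne2 lie higher.

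The activator E2F genes rose. Of the 6 genes in their group, with the E-type cyclins and Slbp, 4 rose, or 66.7%, where 22.1% of all genes tested rose. Over all genes tested the upper quartile of log2 fold changes was 0.16, near the values of these E2F genes. Of the 41 members other than E2F and cyclin E genes 30 fell, or 73.2%, where 20.4% of all genes tested fell. In that subset 1 rose, or 2.44%, where 22.1% of all genes tested rose. None of the genes left out fell, so leaving them out could only raise the share that fell. E2f1 (chr2:154559407-154569892 on the minus strand) had 91.5, 90.4 and 91.0 CPM in sgCdk10, against 82.6, 82.5 and 74.0 CPM in sgControl. The groups do not overlap, and the log2 fold change was 0.19 (edgeR adjusted p = 0.000482; SE 0.041). It was called in all 17 alternatives run, also without sgControl replicate 3, its lowest library (edgeR adjusted p = 0.000991). E2f3 had 58.3, 59.6 and 57.3 CPM in sgCdk10, against 49.9, 50.9 and 53.4 CPM in sgControl, again without overlap, and rose by 0.18 (edgeR adjusted p = 0.00145; SE 0.044), a call that also held in all 17. E2f2 rose by 0.15 (edgeR adjusted p = 0.0385; SE 0.058), a call that held in 7 of 17. It was lost without sgControl replicate 2 (edgeR adjusted p = 0.073) or 3 (0.106) and without sgCdk10 replicate 2 (0.138) or 3 (0.167). For E2f2, DESeq2 gave adjusted p = 0.207, the GC and length correction lowered the value to 0.086 (edgeR adjusted p = 0.216), and the replicate block gave 0.0596. Upper-quartile scaling (0.0707) and no filter (0.0606) also ended its call in edgeR. Of the E-type cyclins, which activate CDK2 at the start of S phase, Ccne2 rose by 0.14 (edgeR adjusted p = 0.0118; SE 0.045) and Ccne1 was not called (interval -0.15 to 0.023; edgeR adjusted p = 0.239). The Ccne2 call was lost without sgControl replicate 1 (edgeR adjusted p = 0.0629) or sgCdk10 replicate 1 (0.0754) and in DESeq2 (adjusted p = 0.0872). The ratio of Ccne2 to Ccne1 counts was 0.800 ± 0.0170 in sgCdk10 and 0.694 ± 0.0272 in sgControl (SD, n = 3). Slbp, which binds the stem-loop of replication-dependent histone mRNAs, was not called, with an interval of -0.12 to 0.036 (edgeR adjusted p = 0.389). The opposite moves show in the ratio of Tk1 to E2f1 counts, which was 1.02, 1.01 and 1.03 in sgCdk10, against 1.62, 1.61 and 1.73 in sgControl, a pair chosen after its values were seen.

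Levels between genes are compared as CPM per kilobase of merged exon. The members spanned a wide range on that scale, and Pcna was the highest in both groups, at 101 in sgCdk10 and 114 in sgControl. Rrm2 followed in sgControl at 100.2, and Mcm7 was the highest of the helicase ring, at 85.9 in sgCdk10 and 97.8 in sgControl. Mcm2 was the lowest of the ring, at 42.4 in sgCdk10 and 49.6 in sgControl. Orc1, the lowest member in sgControl, stood at 3.28 in sgCdk10 and 2.92 in sgControl, and the origin licensing group reached up to Cdt1, at 39.3 in sgCdk10 and 45.6 in sgControl. Of the 23 members with the lower levels in sgControl 11 fell and 4 rose, with a median log2 fold change of -0.085. Of the 23 with the higher levels 19 fell and 1 rose, with a median of -0.19. The level per kilobase was averaged over both groups and taken as log2. Over the 46 genes it had a Pearson r of -0.42 and a Spearman rho of -0.40 with the log2 fold change. This describes genes of the same 6 libraries, which are not independent, and standard errors were larger for genes with few counts, from 0.027 for Rrm1 to 0.11 for Fen1.

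**Figure D4:**
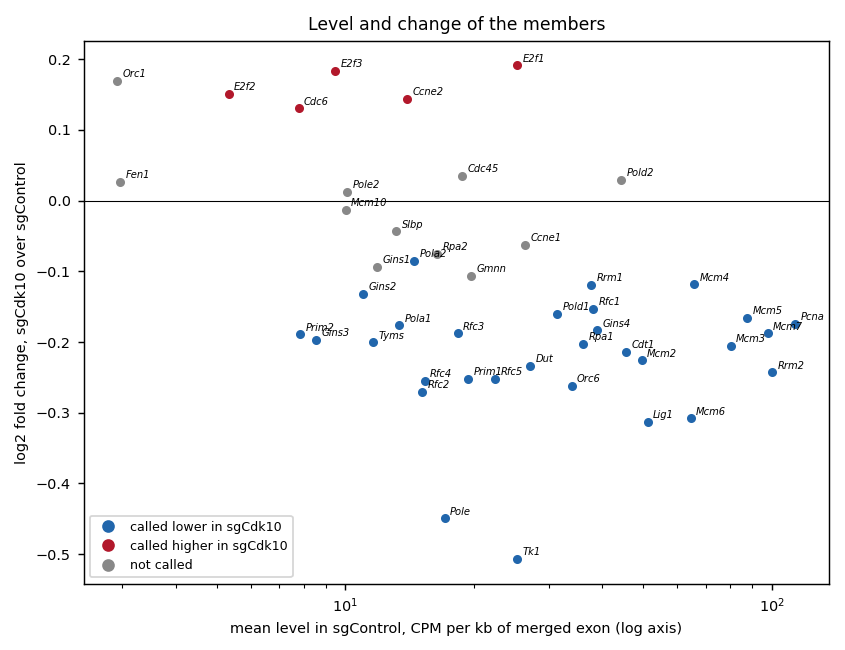
Mean level in sgControl as CPM per kilobase of merged exon (x axis, log scale) against the log2 fold change of sgCdk10 over sgControl (y axis) for the 46 genes. Blue points were called lower, red points higher and grey points were not called. The genes that were called higher lie at or left of E2f1, at 25.3 CPM per kilobase, and the helicase genes lie to the right, below 0.

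Related genes outside the 46 were read from lists chosen with earlier results known. Of 19 origin firing and fork factors 13 fell, or 68.4%, where 20.4% of all genes tested fell. The other 6 were not called, and the median log2 fold change of the list was -0.23. Recql4, a helicase needed for origin firing, fell by 0.52 (edgeR adjusted p = 5.1e-09; SE 0.047), Mtbp, a partner of the firing factor TICRR, by 0.49 and Timeless, a fork protection factor, by 0.47. Clspn, the checkpoint mediator claspin, fell by 0.26. Of the 10 remaining subunits of the members' own complexes 3 fell, 1 rose and 6 were not called, and at this number of genes such counts lie near the 20.4% and 22.1% of all genes tested. Pole3, a histone-fold subunit of polymerase epsilon, fell by 0.22 and Rpa3 by 0.19, while Orc4 rose by 0.17 (edgeR adjusted p = 0.00465; SE 0.046). Rrm2b, the p53-induced subunit of ribonucleotide reductase, fell by 0.21 (edgeR adjusted p = 0.0122; SE 0.067), and by 0.14 without sgCdk10 replicate 1 (edgeR adjusted p = 0.137). Of 8 genes of chromatin assembly at forks 3 were not called, and the median of the list was -0.12. The other 5 fell, or 62.5%, where 20.4% of all genes tested fell. These included Chaf1b, a subunit of the histone chaperone CAF-1 (-0.30), Dnmt1 (-0.17), its recruiter Uhrf1 (-0.14) and the histone chaperone Asf1b (-0.13).

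Of 12 further enzymes of the nucleotide pool 5 fell, or 41.7%, where 20.4% of all genes tested fell. Another 2 rose, or 16.7%, where 22.1% of all genes tested rose. Dck, deoxycytidine kinase, fell by 0.32 and Dtymk, which phosphorylates dTMP, by 0.29 on the log2 scale. Dctd, a deaminase of dCMP, rose by 0.24 (edgeR adjusted p = 0.000279; SE 0.049). Of 25 RB and E2F regulators 8 fell and 7 rose, where 20.4% of all genes tested fell and 22.1% rose. Ccnd3 rose by 0.64, Ccnd1 by 0.34 and Cdkn1a, the CDK inhibitor p21, by 0.52. Cdk4, a kinase partner of D-type cyclins, fell by 0.39 (SE 0.027, edgeR adjusted p = 2.4e-11). Cdk6, another kinase partner of these cyclins, rose by 0.33 (SE 0.033, edgeR adjusted p = 1.4e-08). Of 22 genes of the G2/M phase 5 fell, or 22.7%, which is near the 20.4% of all genes tested. Another 8 rose, or 36.4%, where 22.1% of all genes tested rose, and the median log2 fold change was 0.056. Kif20a rose by 0.19, Aurka by 0.18 and Cenpe by 0.15, and Ube2c fell by 0.16. With DESeq2 or with the GC and length correction 3 genes of this list fell, and 3 without any 1 of the sgCdk10 libraries.

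**Figure D5:**
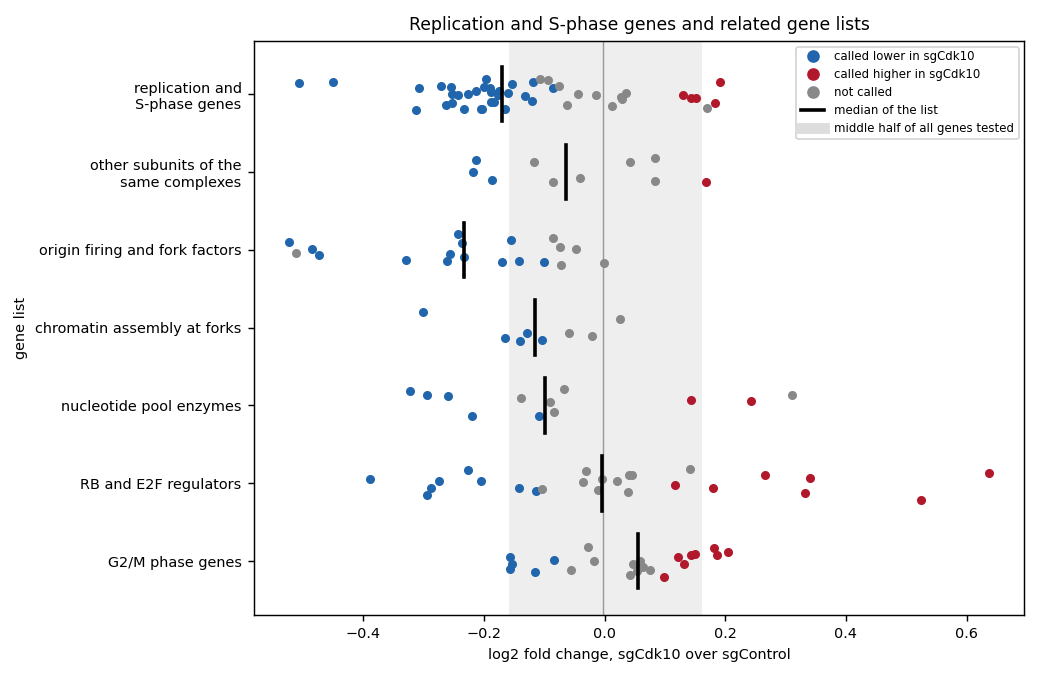
Log2 fold change of sgCdk10 over sgControl (x axis) for the 46 genes and 6 related lists (y axis), 1 point per tested gene. Black bars are list medians, the grey band runs from the lower to the upper quartile of all genes tested, and points are spread vertically for legibility. The bar of origin firing and fork factors lies at -0.23 and that of the G2/M genes at 0.056.

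Markers of other cells were measured beside these results. The summed level of 20 leukocyte markers was 14.3 to 15.8 CPM in sgCdk10 and 10.4 to 10.7 CPM in sgControl, and 8 of them, Cd3e, Cd3d, Cd8a, Ms4a1, Adgre1, Nkg7, Klrb1c and S100a9, were at 0 in all libraries. Cd68, which cells other than macrophages also express, made up most of that sum, with 13.0 ± 0.379 CPM in sgCdk10 and 8.75 ± 0.206 CPM in sgControl (SD, n = 3). The summed level of 10 endothelial and fibroblast markers was 67.0 to 71.9 CPM in sgCdk10 and 59.0 to 63.6 CPM in sgControl, with Lum and Acta2 at 0. Pdgfrb, a receptor of mesenchymal cells, held most of it, with 55.0 ± 1.74 CPM in sgCdk10 and 51.2 ± 1.86 CPM in sgControl (SD, n = 3). It was not called (edgeR adjusted p = 0.0671). Pdgfra, the 1 gene of this list that was called, had 13.9 ± 0.978 CPM in sgCdk10 and 9.03 ± 0.411 CPM in sgControl (SD, n = 3). Its log2 fold change was 0.63 (edgeR adjusted p = 2.2e-06). The sum of the 12 colon epithelial markers was 58.1 to 59.4 CPM in sgCdk10 and 37.0 to 40.8 CPM in sgControl. Of the 3 that passed the filter, the keratins Krt18 and Krt20 rose by 0.65 and 0.51 on the log2 scale. The mucin Muc2 fell by 0.93 (SE 0.34, edgeR adjusted p = 0.0305). Muc2 had only 7 to 9 counts per library in sgCdk10 and 13 to 16 in sgControl, so the size of its fall is uncertain. The part of these differences in the change of the replication genes was not tested.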

How the data were processed

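RNA of CT26 cells was sequenced in 6 libraries, 3 per guide, grouped by library title. The authors deposited raw counts per gene, with Ensembl identifiers and no normalization. Per the submitters' processing notes, featureCounts 2.0.3, HISAT2 2.2.1, the mm10 build and DESeq2 1.40.2 were used, with no role stated. The annotation release and the strand setting were not given in the sources used here. Without strand, reads of overlapping antisense genes cannot be told apart; exons of 14 members overlap a gene on the opposite strand. Symbols, coordinates and merged exon lengths are from GENCODE M21 (GRCm38), which held 52081 of 57010 identifiers.

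Genes were kept by filterByExpr (minimum count 10, minimum total 15). The main test was edgeR 4.0.16, quasi-likelihood with TMM scaling, robust dispersions and group as the only term, with Benjamini-Hochberg adjustment over 13442 genes. Positive log2 fold changes mean higher in sgCdk10. CPM use TMM-adjusted totals, and intervals are 95%. Alternatives, which also used limma 3.58.1 and DESeq2 1.42.0, and the loess span of 0.5 for GC and length, are given under the dependence on processing. The members, lists and tests were chosen with earlier results of these data known. Values per library are given for the 2 members of each role group with the smallest p, for called members that go against their group's median and for members with an absolute log2 fold change of at least 0.3; of each list the 4 genes with the smallest p are named, except 1 gene that is not reported here. Orc1, Pole2 and Rpa2, and Cdk6 among the RB and E2F regulators, were added after their values were seen.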

Additional observations from a re-analysis of the deposited data

How the results depend on the processing

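Members called lower numbered 27 to 30 in the 17 alternatives run, against 30, and members called higher 2 to 5, against 5. Of the 30, 25 were called lower in every alternative and all 30 kept their sign. Of the 5, E2f1 and E2f3 were called in every alternative and all 5 kept their sign. None of the 11 not called was called in an alternative. Upper-quartile scaling, the replicate block, and the block with the GC and length correction gave 3 called higher, DESeq2 gave 2, and leaving out a library gave 3 to 4. The polymerase median (-0.17) was -0.19 with upper-quartile scaling, -0.20 with the GC and length correction, -0.20 with the correction and block, and -0.17 to -0.15 with a library left out. The nucleotide supply median (-0.23) was -0.25 with upper-quartile scaling, -0.22 with the correction and block, and -0.24 to -0.20 with a library left out. The median of the E2F and cyclin group (0.15) was 0.13 with upper-quartile scaling, 0.11 with the correction, 0.11 with the correction and block, and 0.13 to 0.15 with a library left out. The G2/M list had 3 genes called lower, against 5, with DESeq2, with the correction, and with the correction and block, and 3 to 4 with a library left out. Among genes not called, signs turned with a library left out for Mcm10 (-0.027 to 0.00058), Cdc45 (-0.0056 to 0.057), Pold2 (-0.017 to 0.073), Pole2 (-0.0034 to 0.022) and Fen1 (-0.092 to 0.088), and Pole2 was at -0.0074 with upper-quartile scaling. For these differences the cause was not tested. Upper-quartile scaling moved the median of all genes to -0.023. The Cdk10 log2 fold change ran from -0.90 to -0.75. The replicate block gave 28 members called lower and 3 called higher; it ended the calls of Cdc6, E2f2, Gins2 and Pola2. Deviations from the group mean in libraries of the same number had a correlation of 0.025, -0.057 and -0.096. Some libraries correlated better with another number, so the numbers are taken as names.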
